A study of Homo sapiens with 2 samples.

Results

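A set of 10 genes of the Notch pathway was followed in Huh7 cells after knockdown of NEIL3, namely the receptors NOTCH1, NOTCH2 and NOTCH3, the ligands JAG1, JAG2 and DLL1, the DNA-binding factor RBPJ, and the targets HES1, HEY1 and NRARP. They are 10 of 56558 gene symbols in the table, were matched by symbol, and each stood on 1 row. Huh7 is an established human hepatocellular carcinoma line. One library came from Huh7 cells labelled as NEIL3 knockdown and 1 from Huh7 cells labelled as shGFP control, both at passages 5-8. By its name the control carries a short hairpin RNA aimed at green fluorescent protein. NEIL3 encodes a DNA glycosylase; no source used here gives the means of its knockdown, or says whether each culture was a clone or a pool. With 1 library per group no difference below has a replicate check, "lower" and "higher" describe these 2 libraries, and no test was run. The 10 genes were chosen by pathway, with the low NOTCH3 FPKM of the knockdown library already known, so that their values in this contrast are a description.

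Notch receptors are membrane proteins that are switched on by ligands of the Jagged and Delta families on a neighbouring cell. Ligand binding lets ADAM10 and then the gamma-secretase complex cut the receptor, and the freed intracellular domain enters the nucleus, where it binds RBPJ (also called CSL) with a Mastermind coactivator and turns on genes such as HES1, HEY1 and NRARP. In the liver, JAG1 and NOTCH2 are known for their role in bile duct development, and NOTCH3 is best known from vascular smooth muscle cells and pericytes. Transcript levels were measured here, not receptor cleavage.

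Promoters are shown for 4 genes to set the receptor that differed most beside genes at which RBPJ is known to act or that encode RBPJ itself. Sequences are from RefSeq on GRCh38.p14, each 250 bases before to 50 bases after the listed start, 5′ to 3′ on the gene's strand. Capitals mark TGGGAA, the core letters of the RBPJ binding motif, or its reverse complement TTCCCA.
NOTCH3: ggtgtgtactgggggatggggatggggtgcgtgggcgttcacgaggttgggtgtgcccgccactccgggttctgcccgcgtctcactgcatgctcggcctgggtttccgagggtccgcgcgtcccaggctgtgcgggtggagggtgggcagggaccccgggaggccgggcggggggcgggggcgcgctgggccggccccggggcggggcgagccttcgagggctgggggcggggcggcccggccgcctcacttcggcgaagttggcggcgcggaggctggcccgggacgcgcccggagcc
NRARP: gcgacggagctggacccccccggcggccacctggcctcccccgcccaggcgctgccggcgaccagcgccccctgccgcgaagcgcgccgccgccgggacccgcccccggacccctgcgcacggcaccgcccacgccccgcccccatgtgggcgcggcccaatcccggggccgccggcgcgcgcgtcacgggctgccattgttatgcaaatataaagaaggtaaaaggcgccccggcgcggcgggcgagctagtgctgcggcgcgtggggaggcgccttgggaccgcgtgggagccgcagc
HES1: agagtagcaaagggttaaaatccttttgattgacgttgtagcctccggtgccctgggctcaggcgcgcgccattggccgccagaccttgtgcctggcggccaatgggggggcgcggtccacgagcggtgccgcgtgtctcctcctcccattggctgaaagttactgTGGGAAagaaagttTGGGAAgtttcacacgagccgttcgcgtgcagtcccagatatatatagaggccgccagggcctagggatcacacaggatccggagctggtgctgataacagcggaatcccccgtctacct
RBPJ: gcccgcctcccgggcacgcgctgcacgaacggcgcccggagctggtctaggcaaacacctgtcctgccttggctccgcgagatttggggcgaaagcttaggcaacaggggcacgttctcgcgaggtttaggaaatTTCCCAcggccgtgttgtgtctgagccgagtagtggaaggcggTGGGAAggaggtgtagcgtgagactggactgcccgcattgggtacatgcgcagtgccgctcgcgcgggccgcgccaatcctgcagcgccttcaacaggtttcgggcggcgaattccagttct
The NOTCH3 window (chr19:15200946-15201245, minus strand) held no match to TGGGAA on either strand, and neither did the NRARP window (chr9:137302222-137302521, minus strand). The HES1 window (chr3:194135898-194136197, plus strand) held 2 matches, both on the strand of the gene, beginning 84 and 70 bases before the start. The first of these also matched the longer GTGGGAA, which contains TGGGAA. RBPJ has 5 listed starts, of which 1 (chr4:26319496-26319795, plus strand) held 2 matches to GTGGGAA, 1 on each strand, beginning 115 and 73 bases before the start. Windows of 8 of the 10 genes were searched, 12 in all, of which 5 were of RBPJ. HES1 and RBPJ were the 2 genes with a TGGGAA match, in 1 window each. The RBPJ window is printed because it held a match. Among all 35116 promoter windows of this length, 24.0% held TGGGAA on either strand, 3.80% held it at least 2 times, and 6.25% held GTGGGAA. A match is a run of letters and not a measured binding site, and a window without one says nothing of sites elsewhere in the gene.

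Values are FPKM, fragments per kilobase of transcript, scaled for library size, so that levels of different genes can be set side by side. Genes without an estimate are listed at a floor of 1e-05 FPKM. Log2 ratios are log2((knockdown + 1)/(shGFP + 1)), which understates differences of genes of low abundance, and folds given with FPKM values carry no pseudocount. NEIL3 itself had 2.84 FPKM in the knockdown library, against 5.34 FPKM in the shGFP library, a ratio of 0.532, with a q-value of 0.9996 in the authors' deposited table. The knockdown library had 13663 genes at 1 FPKM or more and 26.3% of its FPKM sum in mitochondrial transcripts, against 13768 genes and 23.1% in the shGFP library. Among low values the most frequent ratio was 1.29. If values are scaled to mapped fragments, a knockdown library with 77.8% of the shGFP fragments would show this for 1 fragment in each. The absolute depth was not recovered. Hepatocyte markers were present in both libraries, with, in knockdown and shGFP, ALB (albumin) at 1272 and 1346 FPKM, SERPINA1 (alpha-1 antitrypsin) at 367 and 226 FPKM, and APOB (apolipoprotein B) at 254 and 187 FPKM. Of the 10 hepatocyte markers, 3 were higher by 1.5-fold or more in the knockdown library and 0 lower. Over all symbols with a mean of 1 FPKM or more, 4.20% were higher and 4.02% lower. The 3 markers were SERPINA1, AFP at 59.8 and 12.3 FPKM, and TTR at 7.81 and 1.65 FPKM in knockdown and shGFP. The median log2 ratio of the 10 was 0.40, with 9 above 0 and 1 below. Among all 13748 symbols with a mean of 1 FPKM or more, the median was 0.02, with 7327 above 0 and 6421 below.

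Among the receptors, NOTCH3 was the one past 1.5-fold. NOTCH3 (ENSG00000074181, chromosome 19, 15159038 to 15200981, minus strand, GRCh38) had 2.2 FPKM in the knockdown library, against 12.5 FPKM in the shGFP library. It was thus 5.66-fold lower in the knockdown library, or 82.3% lower, with a log2 ratio of -2.07. Of the 14209 symbols with 1 FPKM or more in at least 1 library, 31 had a lower log2 ratio than NOTCH3. Of these 31, 25 were at the floor in knockdown cells, which may be a failed estimate, and 4 of the others were protein-coding, namely CST1, DKK1, HAMP and IGF2. In the authors' deposited table NOTCH3 had a q-value of 0.0106 and was 1 of 13 rows under 0.05 (0.0223% of 58220 rows), a comparison of these 2 libraries and not of replicated conditions. In bulk RNA, fewer cells with NOTCH3 transcript and less NOTCH3 transcript per cell cannot be told apart.

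NOTCH2 (ENSG00000134250, chromosome 1, 119911553 to 120069626, minus strand), the receptor known from bile duct development, had 3.95 FPKM in the knockdown and 4.47 FPKM in the shGFP library, a log2 ratio of -0.15. NOTCH1 (ENSG00000148400, chromosome 9, 136494444 to 136545862, minus strand) had 2.47 FPKM in the knockdown and 2.06 FPKM in the shGFP library, a log2 ratio of 0.18. Both lay well within 1.5-fold. NOTCH2NL, which carries near-identical copies of the first NOTCH2 exons, was listed at 0.704 and 0.689 FPKM in knockdown and shGFP, so some fragments of NOTCH2 may be shared with it. NOTCH4, the endothelial receptor, was listed at the floor in both libraries.

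The order of the receptors therefore differed between the libraries. In the knockdown library it was NOTCH2, NOTCH1, NOTCH3, with NOTCH3 at 2.2 FPKM close to NOTCH1 at 2.47 FPKM. In the shGFP library it was NOTCH3, NOTCH2, NOTCH1. The 4 receptors summed to 8.63 FPKM in the knockdown library and 19.0 FPKM in the shGFP library, a ratio of 0.454. Without NOTCH3 the sums were 6.42 FPKM in the knockdown and 6.53 FPKM in the shGFP library, a ratio of 0.983. NOTCH3 made up 25.6% of the receptor sum in the knockdown library, against 65.6% in the shGFP library, while, in knockdown and shGFP, NOTCH2 made up 45.8% and 23.5% and NOTCH1 28.7% and 10.8%.

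**Figure D1:**
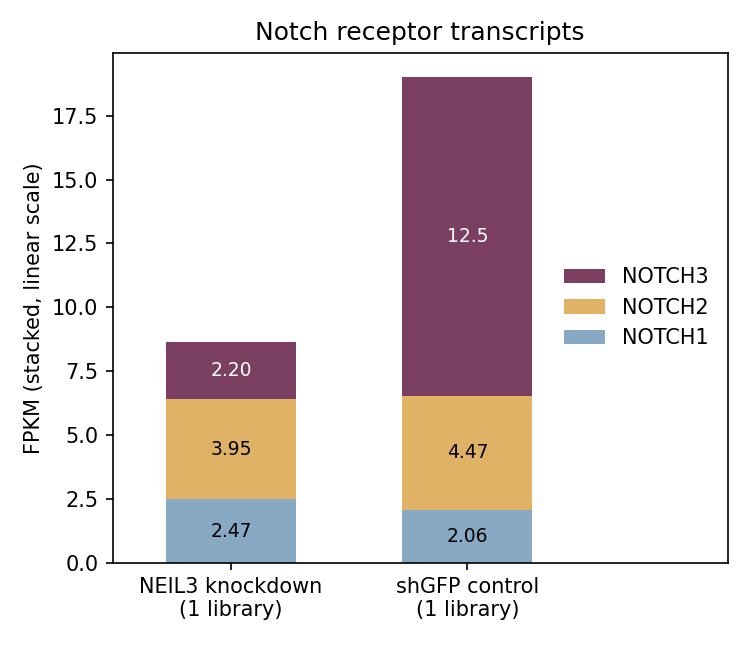
Stacked FPKM (linear scale) of NOTCH1, NOTCH2 and NOTCH3 in 1 NEIL3 knockdown library (left) and 1 shGFP library (right); NOTCH4 was at the floor and is not drawn. The NOTCH3 segment is 2.2 FPKM in the knockdown and 12.5 FPKM in the shGFP library, and the other segments are of similar height in both.

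The Jagged ligands were carried by JAG1 in both libraries. JAG1 (ENSG00000101384, chromosome 20, 10637684 to 10674107, minus strand) had 26.0 FPKM in the knockdown and 30.2 FPKM in the shGFP library, a log2 ratio of -0.21. It made up 95.8% of the summed FPKM of 5 canonical ligands in each library, with DLL1 entering at the floor. JAG2 (ENSG00000184916, chromosome 14, 105140981 to 105168824, minus strand) was low, at 0.647 FPKM in the knockdown and 0.864 FPKM in the shGFP library. DLL1 (ENSG00000198719, chromosome 6, 170282206 to 170306565, minus strand), a Delta-family ligand, was listed at the floor in both libraries, and so no fold is given. FAM120B, which overlaps DLL1 on the opposite strand, was listed at 0.0496 and 0.224 FPKM in knockdown and shGFP. The other Delta-family ligands were low, with DLL3 at 0.314 and 0.250 FPKM and DLL4 at 0.173 and 0.202 FPKM in knockdown and shGFP.

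DLK1, a Delta-like membrane protein of fetal liver cells that lacks the receptor-binding domain of the canonical ligands, had 34.5 FPKM in the knockdown library, against 52.9 FPKM in the shGFP library. It was 1.53-fold lower, with a log2 ratio of -0.60, and was the 1 gene of 6 non-canonical ligands past 1.5-fold with a mean of 1 FPKM or more, of 2 that reached that mean. The other was MFAP2, a microfibril protein, at 9.71 FPKM in the knockdown and 14.4 FPKM in the shGFP library, a log2 ratio of -0.52. Both stood lower in the knockdown library, MFAP2 just inside the limit. Of all symbols with a mean of 1 FPKM or more, 4.02% were at least 1.5-fold lower and 4.20% at least 1.5-fold higher.

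RBPJ (ENSG00000168214, chromosome 4, 26163455 to 26435131, plus strand), through which all Notch receptors act on transcription, was the most abundant of the 10 genes. It had 44.4 FPKM in the knockdown and 44.6 FPKM in the shGFP library, a ratio of 0.997. The 4 RBPJ pseudogenes named in the table were listed at the floor in both libraries.

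On the log2(FPKM + 1) scale none of the 3 targets was 1.5-fold apart. HES1 (ENSG00000114315, chromosome 3, 194136145 to 194138732, plus strand), a transcriptional repressor and standard readout of Notch activity, had 20.5 FPKM in the knockdown and 16.9 FPKM in the shGFP library, a log2 ratio of 0.27. HEY1 (ENSG00000164683, chromosome 8, 79764010 to 79767863, minus strand), a related repressor, had 6.71 FPKM in the knockdown and 4.51 FPKM in the shGFP library. Its plain ratio of 1.49 stood just inside the 1.5-fold limit, and its log2 ratio was 0.48. NRARP (ENSG00000198435, chromosome 9, 137300482 to 137302251, minus strand), a target that feeds back to limit Notch signalling, had 1.30 FPKM in the knockdown library, against 2.34 FPKM in the shGFP library. It was 1.81-fold lower by the plain ratio, while its log2 ratio with the pseudocount was -0.54, just inside the 1.5-fold limit. The 3 targets thus stood on different sides of 0, with HES1 and HEY1 above it and NRARP below.

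**Figure D2:**
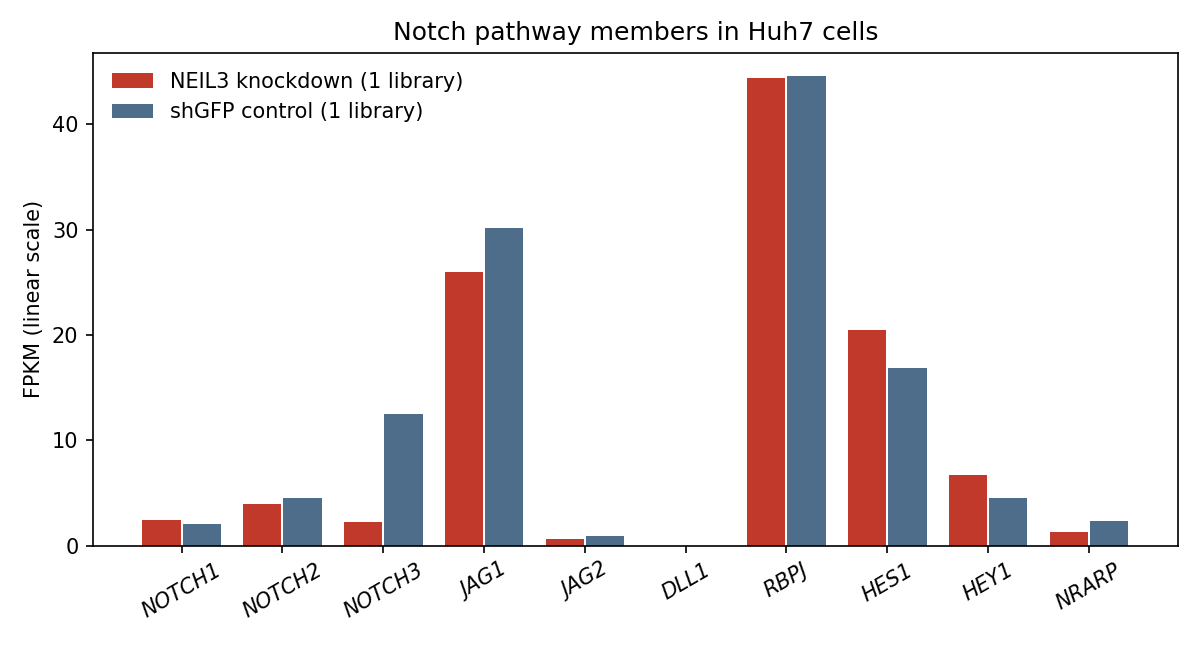
FPKM (linear scale, bars from 0) of the 10 genes in 1 NEIL3 knockdown library (red, left of each pair) and 1 shGFP library (blue, right). NOTCH3 shows the widest gap, at 2.2 FPKM in knockdown and 12.5 FPKM in shGFP, RBPJ stands at 44.4 FPKM in knockdown and 44.6 FPKM in shGFP, and DLL1 is at the floor in both.

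On the log2(FPKM + 1) scale 1 of the 10 genes, NOTCH3, was lower by 1.5-fold or more in the knockdown library and 0 were higher by as much. Among the 14209 symbols with 1 FPKM or more in a library, 4.48% were at least 1.5-fold lower and 4.55% at least 1.5-fold higher. NOTCH3 was also past 2-fold; of those symbols 1.28% were at least 2-fold lower and 1.34% at least 2-fold higher. By the plain ratio NRARP joined NOTCH3, beside 7.23% of symbols lower and 6.88% higher. These shares are given as background and nothing is read from them, since the gene set was chosen around NOTCH3. Of the 9 genes off the floor, 6 had log2 ratios below 0 and 3 above. Of the 8 with a mean of 1 FPKM or more, 5 lay below 0 and 3 above. Among all 13748 symbols with such a mean, 6421 lay below 0 and 7327 above. The 8 genes with a mean of 1 FPKM or more had a median log2 ratio of -0.07, beside 0.02 over all 13748 symbols with such a mean.

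**Figure D3:**
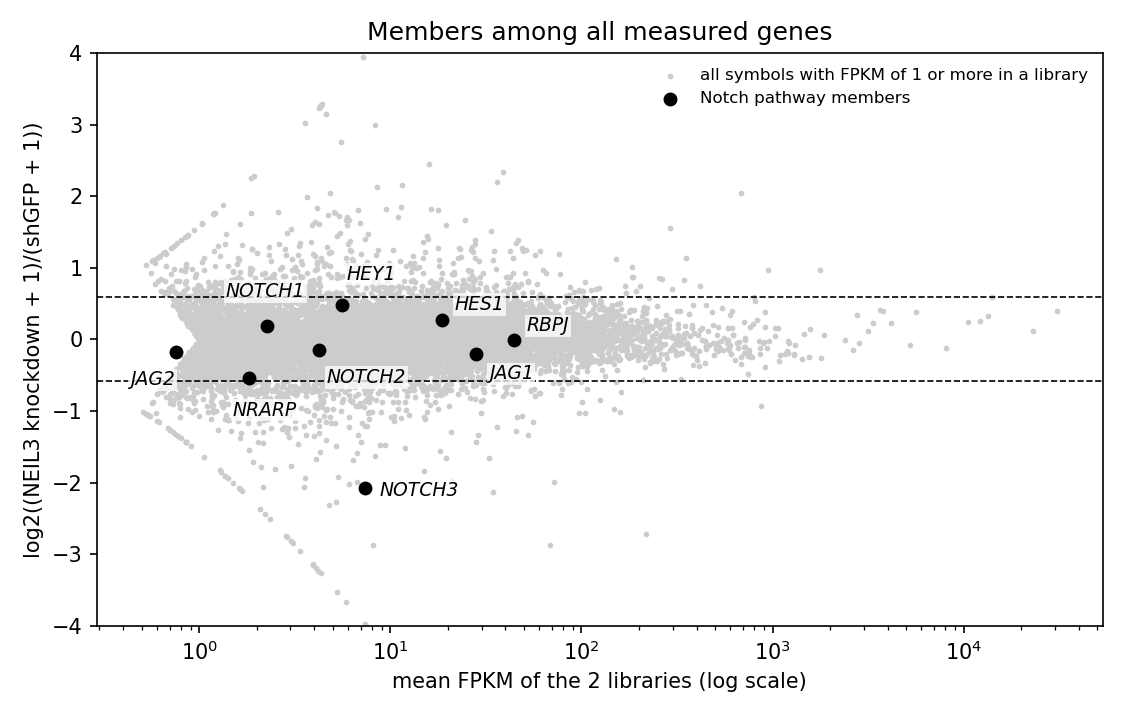
Log2((NEIL3 knockdown + 1)/(shGFP + 1)) against mean FPKM (log axis) for 14209 symbols (grey), with the 9 genes off the floor in black; dashed lines mark 1.5-fold, and 9 symbols beyond 4 on the log2 scale are outside the plot. NOTCH3 lies at -2.07, the other 8 between -0.54 and 0.48.

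The wider pathway was read from 9 lists by role, 89 genes in all, of which 68 had a mean of 1 FPKM or more. Past 1.5-fold, 4 of these 68 were lower and 3 higher in the knockdown library, and 61 lay within that limit. Among all symbols with such a mean, 4.02% were lower and 4.20% higher. The 68 genes had a median log2 ratio of -0.06, beside 0.02 over all 13748 symbols. The lower ones were NOTCH3, DLK1, TLE1 and TLE2, and the higher ones LFNG, MAML2 and CTBP2. By the plain ratio 6 were lower and 3 higher, beside 6.29% and 6.14% of all symbols, with NRARP and L3MBTL3 (2.82 FPKM in the knockdown and 4.29 FPKM in the shGFP library) added to the lower ones. NOTCH3 was the 1 pathway gene with a q-value under 0.05 in the authors' deposited table.

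Of the genes for glycosylation and cleavage of the receptors, 1 was past 1.5-fold. The shares over all symbols with a mean of 1 FPKM or more were 4.02% lower and 4.20% higher. Nothing is read from the counts given in this paragraph. LFNG, a Fringe enzyme that adds a sugar to Notch receptors and changes which ligands they respond to, had 4.62 FPKM in the knockdown library, against 1.89 FPKM in the shGFP library. It was 2.44-fold higher by the plain ratio, with a log2 ratio of 0.96, and the other 7 measured glycosylation genes lay within 1.5-fold. RFNG, the most abundant Fringe, had 20.5 FPKM in the knockdown and 25.4 FPKM in the shGFP library, so that LFNG made up 17.9% of the summed Fringe FPKM in the knockdown library and 6.75% in the shGFP library. Of 9 genes for receptor cleavage, 0 were 1.5-fold apart. ADAM10, the protease of the ligand-dependent cut, had 96.3 and 111 FPKM, and the gamma-secretase subunit NCSTN had 70.5 and 71.8 FPKM in knockdown and shGFP. Of 14 measured genes for trafficking of ligands and receptors, 0 were 1.5-fold apart either, with the Notch inhibitor NUMB at 48.9 and 44.5 FPKM and the ubiquitin ligase ITCH at 33.0 and 30.2 FPKM in knockdown and shGFP.

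Around RBPJ in the nucleus, 7 of 8 measured transcription complex genes and 15 of 18 measured corepressor and turnover genes lay within 1.5-fold. Of all 13748 symbols with a mean of 1 FPKM or more, 12618 did. MAML2, a Mastermind coactivator, had 4.57 FPKM in the knockdown library, against 1.76 FPKM in the shGFP library. It was 2.59-fold higher, with a log2 ratio of 1.01, the 1 gene past 1.5-fold of 8 measured in the transcription complex. MAML3, another coactivator of the family, had 4.21 FPKM in the knockdown and 4.69 FPKM in the shGFP library. Of 18 measured corepressor and turnover genes, 2 were lower and 1 higher by 1.5-fold or more. The shares over all symbols with a mean of 1 FPKM or more were 4.02% lower and 4.20% higher. TLE1, a Groucho-family corepressor that works with HES proteins, had 11.6 FPKM in the knockdown library, against 19.5 FPKM in the shGFP library (log2 ratio -0.70). Its relative TLE2 had 3.33 FPKM in the knockdown library, against 5.97 FPKM in the shGFP library (log2 ratio -0.69). TLE3, of the same family, had 14.8 and 13.7 FPKM in knockdown and shGFP. CTBP2, a corepressor recruited with RBPJ, had 4.0 FPKM in the knockdown library, against 2.02 FPKM in the shGFP library (log2 ratio 0.73). Processed pseudogenes of CTBP2 are in the table, so its value is uncertain.

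Of 10 HES, HEY and feedback targets, 5 had a mean of 1 FPKM or more and 0 of these passed 1.5-fold with the pseudocount. Among all symbols with such a mean, 4.02% were lower and 4.20% higher. By the plain ratio 1 of the 5, NRARP, was lower past that limit, beside 6.29% of all symbols. Nothing is read from these counts. Besides HES1, HEY1 and NRARP the 5 were HES6, a HES-family protein known to oppose HES1, at 8.13 and 9.17 FPKM, and HES4 at 3.40 and 3.67 FPKM in knockdown and shGFP. The median log2 ratio of the 5 was -0.09. HES5 stood at the floor in knockdown cells and at 0.0145 FPKM in shGFP cells.

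**Figure D4:**
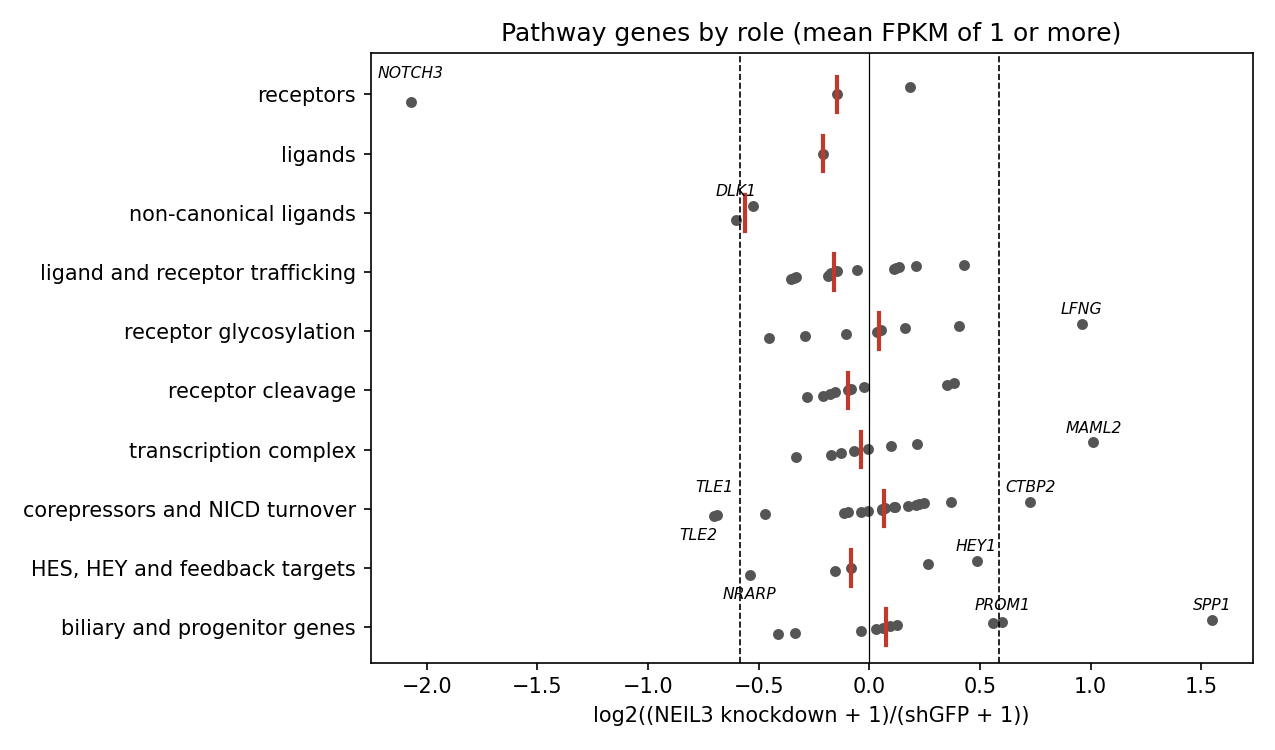
Log2((NEIL3 knockdown + 1)/(shGFP + 1)) of pathway genes with a mean of 1 FPKM or more, 1 row per role, with biliary and progenitor genes in the bottom row; each point is a gene, red bars are list medians and dashed lines mark 1.5-fold. NOTCH3 at -2.07 stands apart at the left, and LFNG at 0.96 and MAML2 at 1.01 at the right; SPP1 at 1.55 is the highest biliary gene.

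Biliary and progenitor genes, some of which lie downstream of Notch in liver development, mostly lay within 1.5-fold. SOX9, a biliary transcription factor that Notch is known to induce, had 92.9 FPKM in the knockdown and 89.0 FPKM in the shGFP library, and the surface protein CD24 had 325 and 318 FPKM in knockdown and shGFP. SPP1 (osteopontin) was 2.94-fold higher, at 434 FPKM in the knockdown library, against 148 FPKM in the shGFP library. Of 10 measured genes 2 were at least 1.5-fold higher and 0 lower, beside 4.20% and 4.02% of all symbols with such a mean. The 2 were SPP1 and the progenitor surface marker PROM1, at 1.52 FPKM in knockdown and 0.660 FPKM in shGFP. By the plain ratio 2 others stood just inside the limit. EPCAM was 1.49-fold higher, at 53.7 and 36.1 FPKM, and ONECUT1 1.49-fold lower, at 2.02 and 3.02 FPKM in knockdown and shGFP. The median log2 ratio was 0.08.

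Most markers of other cell types were low. Of 9 stellate cell and pericyte markers, a group in which NOTCH3 is known to be expressed, 5 had a mean of 1 FPKM or more. The symbol RGS5 (a regulator of G protein signalling) stands on a protein-coding row, at 1.99 FPKM in the knockdown and 2.39 FPKM in the shGFP library, and on a more abundant antisense row, at 3.64 and 2.98 FPKM in knockdown and shGFP. With the protein-coding row, a choice made after seeing the data, 7 of the 9 markers were lower and 2 higher in the knockdown library, and the 9 summed to 25.3 FPKM in the knockdown and 21.4 FPKM in the shGFP library; with the antisense row, 6 were lower and 3 higher, and the sums were 27.0 and 22.0 FPKM in knockdown and shGFP. PDGFRB, a pericyte growth factor receptor, was the one past 1.5-fold on the log2(FPKM + 1) scale, 2.77-fold higher at 9.19 FPKM in the knockdown library, against 3.32 FPKM in the shGFP library. Among all 13748 symbols with a mean of 1 FPKM or more, 6421 were lower and 7327 higher, and 4.20% were at least 1.5-fold higher. Without PDGFRB the order of the sums turned, at 16.1 FPKM in the knockdown and 18.1 FPKM in the shGFP library with the protein-coding RGS5 row, or 17.8 and 18.7 FPKM in knockdown and shGFP with the antisense row. COL3A1 had 4.89 and 5.63 FPKM and ACTA2 (smooth muscle actin) 4.05 and 4.47 FPKM, while DES (desmin) stood at 0.0653 and 0.137 FPKM in knockdown and shGFP. In knockdown and shGFP the 8 endothelial markers summed to 8.59 and 8.54 FPKM, with 2 at a mean of 1 FPKM or more, namely EGFL7 at 3.07 and 3.88 FPKM and PECAM1 at 3.60 and 2.90 FPKM. ENG stood at 0.581 and 0.573 FPKM and the defining gene CDH5 at 0.276 and 0.205 FPKM in knockdown and shGFP. In the knockdown and shGFP libraries the 6 leukocyte markers summed to 21.4 and 23.1 FPKM, nearly all from CD68 at 15.4 and 19.7 FPKM and CD14 at 5.33 and 2.57 FPKM, with PTPRC at 0.224 and 0.149 FPKM. The labels name Huh7 cells alone, and the part of any other cells in the NOTCH3 value was not tested.

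Of the protein-coding genes near NOTCH3 on chromosome 19, ILVBL and SYDE1 lay within 1.5-fold. ILVBL had 20.8 and 19.7 FPKM and SYDE1 5.02 and 4.51 FPKM in knockdown and shGFP, on the lower-coordinate side. EPHX3, on the other side, was listed at 0.0260 and 0.0205 FPKM in knockdown and shGFP, too low for a 1.5-fold difference on the log2(FPKM + 1) scale. One microRNA gene, MIR6795, lies within NOTCH3 on the same strand, and it was listed at the floor in both libraries.

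By distance in log2(FPKM + 1) over the 2 libraries, the protein-coding genes most like NOTCH3 included SLC2A3, ZNF385C, SSC4D and BGN. SLC2A3, a glucose transporter, was nearest, at 2.09 FPKM in the knockdown library, against 11.3 FPKM in the shGFP library, a distance of 0.144. The zinc finger gene ZNF385C had 2.49 FPKM in knockdown, against 10.3 FPKM in shGFP. SSC4D had 3.31 FPKM in knockdown, against 10.7 FPKM in shGFP, and BGN (biglycan, a matrix proteoglycan) 3.55 FPKM in knockdown, against 13.1 FPKM in shGFP. The likeness is over 2 libraries only and was fixed by closeness of level and ratio.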

How the data were processed

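RNA sequencing of 1 NEIL3 knockdown and 1 shGFP library of Huh7 cells was used. Per the labels' protocols, libraries were made from total RNA with a strand-specific kit. The tools named are Cufflinks 2.2.1 with Cuffdiff, HISAT2 2.1.0, SAMtools 1.2, Trimmomatic 0.36 and bcl2fastq, and the build is GRCh38.p10, per the submitters' processing notes; no source used here names the annotation release or the strand setting. The authors deposited FPKM values for 58220 rows. The authors' ratio and log2 columns are knockdown over control without a pseudocount, per the file headers, and equal the quotient of the FPKM columns within 1e-04 in all rows. P-values and q-values in the deposited table come from the authors' comparison of the 2 libraries, and only q-values are quoted.

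The most abundant row per symbol was kept. Log2 ratios used a pseudocount of 1 FPKM, computed with Python 3.11.15, pandas 2.3.3 and numpy 2.4.6. Lists counted genes with a mean of 1 FPKM or more. Fold calls by the plain ratio were checked on simulated data with planted folds and little noise. That check covers the arithmetic only, not the error of a single library. Without counts and replicates, no count model, p-value or interval was computed. Alternatives were other pseudocounts, scalings, minimums and fold limits, and sums over rows.

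Named genes were NEIL3, the 10 members, pathway genes at least 1.5-fold apart (otherwise the 2 most abundant of a list), the 3 most abundant of each marker list, 2 neighbours on each side of NOTCH3 and the 5 genes nearest to it in level; some genes these rules name are not reported here. DLL3, DLL4, FAM120B, NOTCH2NL, NOTCH4, MFAP2, RGS5, RFNG, MAML3, TLE3, HES4, HES5, PROM1, EPCAM, ONECUT1, CDH5, DES, PTPRC, L3MBTL3, AFP and TTR, the genes of lower ratio than NOTCH3 and the low genes of the closing section were added after their values were seen. Members and lists were chosen with earlier results of these data known.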

Additional observations from a re-analysis of the deposited data

How the results depend on the processing

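No replicate exists in either group, so every value rests on 1 library. No paired analysis was possible because each group has 1 library and no result comes from a test. The log2 ratio of NOTCH3 was -2.45 with a pseudocount of 0.1 FPKM, -1.28 with 5 FPKM, -2.50 by the plain ratio, -2.09 with equal FPKM sums outside the mitochondrial chromosome and -2.10 with the median protein-coding ratio set to 1. These scalings shift plain log2 ratios by -0.03 and -0.04, and ratios with the pseudocount by less. The count of the 10 members at least 1.5-fold lower was 2 with a pseudocount of 0.1 FPKM and 2 by the plain ratio, NRARP being added, and 1 under the other settings. Of the 89 pathway genes, 1 was lower and 0 higher with a pseudocount of 5 FPKM, 1 and 1 with a 2-fold limit, and 3 and 0 with a mean FPKM of 5 or more, against 4 and 3 with a mean of 1 FPKM or more. The 7 genes past 1.5-fold remained so under both scalings; with 0.1 FPKM or the plain ratio they remained and L3MBTL3 and NRARP joined, while with 5 FPKM only NOTCH3 remained. The pathway median was -0.065 with 0.1 FPKM, -0.045 with 5 FPKM, -0.066 by the plain ratio, -0.086 with equal FPKM sums, -0.10 with the median ratio set to 1, -0.035 without a minimum and -0.032 with a mean FPKM of 5 or more. At like transcript length, genes under 1 FPKM rest on fewer fragments than more abundant genes. How many is unknown, since absolute depth was not recovered.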

Other observations

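Of the 89 pathway genes, 21 had a mean under 1 FPKM and stood outside the counts above, and 18 of these were off the floor in both libraries. On the log2(FPKM + 1) scale 1 was past 1.5-fold. This was DTX4, a Deltex-family ubiquitin ligase, at 0.372 FPKM in the knockdown library, against 1.21 FPKM in the shGFP library, a log2 ratio of -0.69. By the plain ratio 5 of the 18 were at least 1.5-fold lower (DTX4, DNER, HEYL, NEURL1 and MAML1) and 3 at least 1.5-fold higher (CNTN1, DTX1 and HES2). The share over all symbols with a mean under 1 FPKM is not given here, and so nothing is read from these counts. CNTN1, a contactin described as a Notch ligand in the nervous system, was 3.45-fold higher, at 0.677 FPKM in the knockdown library, against 0.196 FPKM in the shGFP library. HEYL, a HEY-family target known from smooth muscle cells, stood at 0.178 FPKM in the knockdown and 0.376 FPKM in the shGFP library. The genes given with values were chosen after those were seen, and levels this low carry the largest counting error.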
